A study of Mus musculus with 12 samples.

Results

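Guca1a, Tdpoz2, Tdpoz3, Timd2, Ubtfl1 and Zfp352 are 6 genes that were near background in pronuclear mouse embryos and bright in 2-cell embryos, and they were followed here through 5 stages of development. They were taken as the probe sets whose gene symbol was one of these names, 6 of 22206 probe sets with 1 for each gene, and as 6 of the 21156 genes that were tested. The genes had been picked for their rise from the pronuclear to the 2-cell stage and, in the case of Zfp352, for its later fall to the morula, so those values are given as a description with no test. What the choice did not fix is how long each stayed high: at the morula, Timd2 was higher than at the 2-cell stage, Guca1a and Tdpoz2 were within 1 log2 unit of their 2-cell signal, and Ubtfl1, Tdpoz3 and Zfp352 were far below it. By E10.5 all 6 had returned to about the level of genes not used by the embryo, and Timd2 rose again at E16.5.

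RNA of whole embryos was hybridised to 12 arrays. The stages were pronuclear (E0.5, 2 arrays), 2-cell (E1.5, 2 arrays) and morula (E2.5, 2 arrays) embryos, each array from pooled embryos with an unstated number per pool, and E10.5 and E16.5 embryos (3 arrays each), each array from the whole body of 1 embryo. All came from superovulated females mated naturally, with no genotype, strain or treatment difference named in the labels, and pronuclear embryos were washed and kept in KSOM, an embryo culture medium. The labels do not say that the pools or embryos of a stage had different mothers, and p-values here reflect no more than the spread among the arrays, part of which may be technical.

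In the mouse, the fertilised egg lives on RNA stored by the mother, and the main wave of transcription from the embryo's own genome comes at the 2-cell stage. Many of the genes switched on then are shut down within the next divisions, while others stay on as the morula compacts and prepares to form a blastocyst. Among the genes known from this wave are members of repeated families such as Zscan4, Obox and Tdpoz. The 6 genes here have unlike products: GUCA1A is a calcium sensor that controls guanylate cyclase in photoreceptors of the retina, TDPOZ2 and TDPOZ3 are proteins with a TRAF-like and a POZ domain related to the ubiquitin ligase adaptor SPOP, TIMD2 is a surface receptor that takes up H-ferritin, UBTFL1 is an HMG-box protein related to the RNA polymerase I factor UBTF and is needed before implantation in the mouse, and ZFP352 is a zinc finger protein.

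The promoters of 4 of the genes are shown because their owners came on together and went off apart. Each sequence is the 250 bases before the annotated start in RefSeq (GRCm38.p6), 5′ to 3′ on the strand of the gene, and capitals mark GGATTA or its reverse complement TAATCC, the core read by homeodomain proteins of the Otx and Obox type. The windows are chr4:90218570-90218819 (+) for Zfp352, chr17:47400607-47400856 (-) for Guca1a, chr11:46707105-46707354 (-) for Timd2 and chr9:18404168-18404417 (+) for Ubtfl1.
Zfp352: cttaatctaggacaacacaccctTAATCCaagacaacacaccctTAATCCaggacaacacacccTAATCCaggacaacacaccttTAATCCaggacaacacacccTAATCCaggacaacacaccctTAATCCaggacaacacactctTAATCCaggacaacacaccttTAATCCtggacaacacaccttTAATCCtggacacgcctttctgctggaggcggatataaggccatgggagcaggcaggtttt
Guca1a: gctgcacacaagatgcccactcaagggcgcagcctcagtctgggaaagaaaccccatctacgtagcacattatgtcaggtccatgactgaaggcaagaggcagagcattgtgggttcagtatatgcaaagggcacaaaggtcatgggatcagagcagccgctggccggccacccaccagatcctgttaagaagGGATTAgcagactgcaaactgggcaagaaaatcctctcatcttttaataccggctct
Timd2: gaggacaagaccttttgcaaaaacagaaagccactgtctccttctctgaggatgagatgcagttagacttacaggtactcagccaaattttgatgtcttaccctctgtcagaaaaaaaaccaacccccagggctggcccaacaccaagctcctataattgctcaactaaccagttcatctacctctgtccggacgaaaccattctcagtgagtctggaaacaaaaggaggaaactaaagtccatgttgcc
Ubtfl1: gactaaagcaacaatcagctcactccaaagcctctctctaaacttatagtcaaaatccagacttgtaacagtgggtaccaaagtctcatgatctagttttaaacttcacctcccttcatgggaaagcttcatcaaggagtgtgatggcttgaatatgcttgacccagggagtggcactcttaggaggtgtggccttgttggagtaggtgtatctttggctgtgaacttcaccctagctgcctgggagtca
The Zfp352 window held 9 copies of this motif, all as TAATCC, with first bases from 227 to 61 bases before the start, and they lie in a short repeat in which aggacaacacac occurs 7 times. No other of the 32851 RefSeq windows of this length held as many copies, and 6.25% held at least 1. The Guca1a window held 1 copy, beginning 57 bases before the start, and the windows of Timd2 and Ubtfl1 held none, nor did a second Timd2 window at chr11:46698831-46699080 (-). On either strand, no window of the 4 genes held the Dux type motif (TGATT and AATCA joined by 1 base, in 0.0304% of windows), TATAAA (12.4%), CCAAT (33.8%) or GGGCGG (32.7%), and none of the matches overlapped another motif. These matches describe the letters and say nothing of which protein binds there.

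Signals are on the log2 scale, where 1 unit is a 2-fold step. The level of genes an embryo does not use was taken from 1404 olfactory and vomeronasal receptor genes, whose 95th percentile was 5.85 at the pronuclear stage, 6.36 at the 2-cell stage, 6.1 at the morula, 5.38 at E10.5 and 5.24 at E16.5. Where a stage mean lies inside this receptor range, the size of a change to or from it depends on that background. Array medians lay between 6.19 and 6.59 and the brightest signal of all was 19.53, arrays of 1 stage correlated at 0.978 to 0.992 and arrays of different stages at 0.654 to 0.888, and the number of arrays limits the precision. In bulk RNA, fewer cells of a type and less RNA per cell cannot be told apart.

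**Figure D1:**
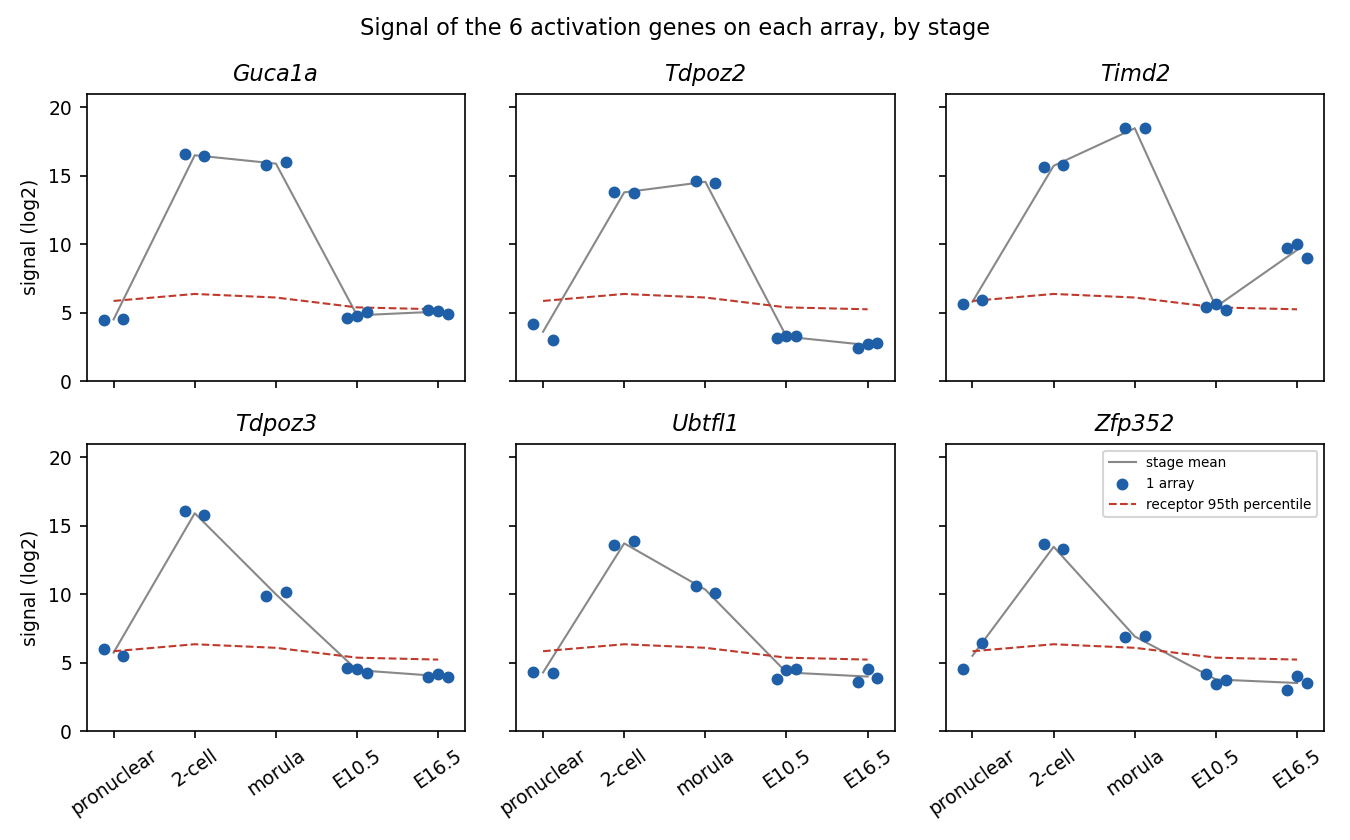
Signal (log2, vertical axis) of each gene on every array at the 5 stages; points are arrays, the grey line joins stage means and the dashed line is the 95th percentile of the receptor genes. Guca1a, Tdpoz2 and Timd2 (top row) stay near or above their 2-cell signal at the morula, Tdpoz3, Ubtfl1 and Zfp352 (bottom row) do not, and Timd2 alone is well above the dashed line at E16.5.

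Guca1a, the retinal calcium sensor, had the largest rise of all genes and stayed high through the morula. It is at chr17:47394558-47400584 on the minus strand (mm10). Its signals were 4.46 and 4.53 in pronuclear embryos, 16.57 and 16.41 in 2-cell embryos, 15.75 and 16.01 in morulae, 4.61, 4.73 and 5.07 at E10.5, and 5.2, 5.12 and 4.91 at E16.5. The 2-cell and morula arrays stood more than 10 units above all the others, and the E10.5 and E16.5 arrays overlapped.

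The related genes Tdpoz2 and Tdpoz3 lie 173 kb apart on chromosome 3 and came on together, but they parted at the morula. Tdpoz2 is at chr3:93651542-93652686 on the minus strand, and its signals were 4.19 and 3.02 in pronuclear embryos, 13.79 and 13.76 in 2-cell embryos, 14.62 and 14.49 in morulae, 3.16, 3.29 and 3.27 at E10.5, and 2.41, 2.7 and 2.77 at E16.5. The morula arrays were the highest, and the E16.5 arrays lay below those of E10.5. Tdpoz3 is at chr3:93826020-93827117 on the plus strand, and its signals were 5.99 and 5.52 in pronuclear embryos, 16.07 and 15.79 in 2-cell embryos, 9.86 and 10.16 in morulae, 4.62, 4.55 and 4.23 at E10.5, and 3.96, 4.19 and 3.97 at E16.5. Its morula arrays were between the other stages, below both 2-cell arrays and above all the rest.

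Timd2, the ferritin receptor, reached its peak after the 2-cell stage. It is at chr11:46668960-46707104 on the minus strand. Its signals were 5.66 and 5.92 in pronuclear embryos, 15.66 and 15.78 in 2-cell embryos, 18.45 and 18.46 in morulae, 5.39, 5.66 and 5.21 at E10.5, and 9.68, 10.03 and 9.0 at E16.5. The morula arrays were the highest and nearly equal, and the 3 E16.5 arrays were well above the pronuclear and E10.5 arrays.

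Ubtfl1, the relative of UBTF, fell partway at the morula. It is at chr9:18404418-18411502 on the plus strand. Its signals were 4.33 and 4.26 in pronuclear embryos, 13.6 and 13.87 in 2-cell embryos, 10.59 and 10.11 in morulae, 3.82, 4.5 and 4.57 at E10.5, and 3.59, 4.53 and 3.88 at E16.5. The morula arrays lay between those of the 2-cell stage and a floor that the pronuclear, E10.5 and E16.5 arrays shared.

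Zfp352, the zinc finger gene, was high at 1 stage only. It is at chr4:90218820-90225702 on the plus strand. Its signals were 4.58 and 6.46 in pronuclear embryos, 13.66 and 13.3 in 2-cell embryos, 6.9 and 6.96 in morulae, 4.16, 3.43 and 3.77 at E10.5, and 2.99, 4.07 and 3.52 at E16.5. The pronuclear arrays differed from each other by more than a log2 unit, with 1 inside and 1 above the receptor range, and the morula arrays were just above it.

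In order of level, the neighbouring stages of each gene had arrays that did not overlap, with some exceptions. E16.5 and E10.5 overlapped in Guca1a, Ubtfl1 and Zfp352, and pronuclear and E10.5 overlapped in Tdpoz2 and Ubtfl1. Stages sorted by their means and with few arrays part easily, and the share of all genes that do so was not counted. The authors' own flag per stage, for which the sources used here give no rule, was F for Tdpoz2 at the pronuclear, E10.5 and E16.5 stages and T at the 2-cell and morula stages. For Ubtfl1 it was F at E16.5 only. For Guca1a, Tdpoz3, Timd2 and Zfp352 it was T at all 5 stages, also where the mean lay inside the receptor range.

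The rise that chose the genes was 11.99 log2 units in 2-cell over pronuclear embryos for Guca1a, 10.18 for Tdpoz3, 10.17 for Tdpoz2, 9.93 for Timd2, 9.43 for Ubtfl1 and 7.96 for Zfp352. Among 21156 genes these rises ranked 1, 2, 3, 5, 10 and 28. The pronuclear mean of all 6 lay inside the receptor range, so the size of each rise depends on that background. With 1 array left out or another setting, the rise of Zfp352 ran from 7.03 to 8.9 and that of Tdpoz2 from 9.59 to 10.76. Across all genes 35.6% passed the threshold in this comparison, 15.6% upward and 20.0% downward, and no call of a member is read from it. Just below Ubtfl1, among genes with settled names, were Slc34a2, a phosphate transporter, with a rise of 9.41 and Slc19a3, a thiamine transporter, with 9.35. The next was Calcoco2, an autophagy receptor, with 8.84.

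The change to the morula ran from a rise to a near loss. This comparison shares the 2-cell arrays with the choice of the genes, so its p-values are not independent of that choice. In limma, at a Benjamini-Hochberg adjusted p of 0.05 taken across every gene, 40.0% of genes passed, 20.0% upward and 20.0% downward, so a pass alone says little and the sizes matter more. Of the 5 members tested, 1 passed upward and 2 downward. Timd2 averaged 18.46 ± 0.0078 in morulae and 15.72 ± 0.086 in 2-cell embryos (SD, n = 2 each). It rose by 2.74 (SE 0.33, limma adjusted p = 6.81e-06).

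Tdpoz2 and Guca1a did not pass the test. Tdpoz2 averaged 14.55 ± 0.094 in morulae and 13.78 ± 0.023 in 2-cell embryos, a difference of 0.78 (SE 0.34, 95% interval 0.05 to 1.5, limma adjusted p = 0.0829). Guca1a averaged 15.88 ± 0.19 in morulae and 16.49 ± 0.11 in 2-cell embryos, a difference of -0.61 (SE 0.28, 95% interval -1.21 to -0.02, limma adjusted p = 0.0933). In both genes the arrays of the stages did not overlap, but 2 against 2 arrays can easily part with no true difference. By the 95% intervals, small changes in opposite directions are within what the data allow.

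Ubtfl1 and Tdpoz3 fell. Ubtfl1 averaged 10.35 ± 0.34 in morulae and 13.73 ± 0.19 in 2-cell embryos, and it fell by 3.39 (SE 0.36, limma adjusted p = 1.74e-06). Tdpoz3 averaged 10.01 ± 0.21 in morulae and 15.93 ± 0.2 in 2-cell embryos, and it fell by 5.92 (SE 0.29, limma adjusted p = 5.13e-10). Zfp352, described with no test because this fall chose it, averaged 6.93 ± 0.038 in morulae and 13.48 ± 0.26 in 2-cell embryos, a difference of -6.55.

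**Figure D2:**
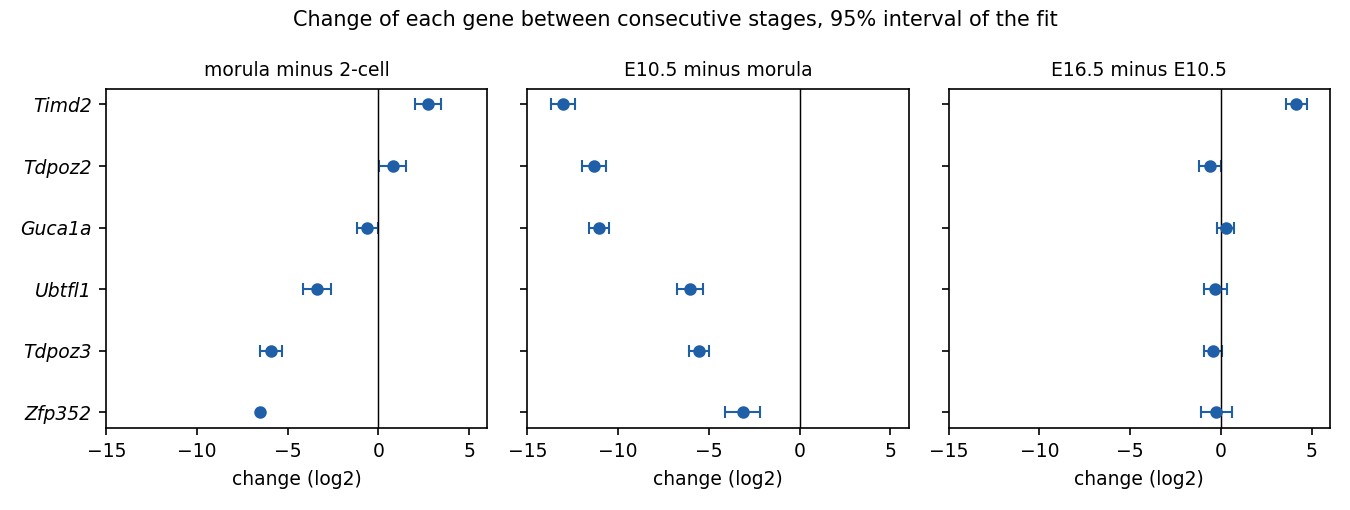
Change between consecutive stages (log2, horizontal axis) for each gene, one panel per comparison; points are the fitted differences and bars their 95% intervals, with none drawn for Zfp352 in the first panel, where it is only described. At the morula the genes run from 2.74 for Timd2 to -6.55 for Zfp352, at E10.5 all are below zero, and at E16.5 Timd2 alone is far from zero.

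The 5 genes other than Zfp352, whose fall was chosen, made 10 pairs, and the changes to the morula of the genes of a pair were apart by 1.39 log2 units (Guca1a against Tdpoz2) to 8.66 (Timd2 against Tdpoz3). With 2 against 2 arrays the exact permutation test (two-sided) gave p = 0.333 for each of these pairs, which is the smallest it can give, and 0.333 after Benjamini-Hochberg adjustment, so it cannot reach 0.05 and the sizes are a description. Tdpoz2 minus Tdpoz3 was 4.76 and 4.33 on the morula arrays and -2.28 and -2.03 on the 2-cell arrays, a difference between their changes of 6.7. Signals of different probe sets are not on 1 scale, so only the difference of the changes is compared, not the levels.

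How much of the activation was left is shown by morulae against pronuclear embryos, where 47.7% of genes passed, 23.8% upward and 23.9% downward. This comparison shares the pronuclear arrays with the choice, which favoured genes low on them. Its p-values are therefore not independent of the choice, and the sizes are read as a description. The fitted differences were 12.67 for Timd2 (SE 0.33, limma adjusted p = 9.53e-13), 11.38 for Guca1a (SE 0.28, limma adjusted p = 9.53e-13) and 10.95 for Tdpoz2 (SE 0.34, limma adjusted p = 2.81e-12). Ubtfl1 was still higher by 6.05 (SE 0.36, limma adjusted p = 1.65e-09) and Tdpoz3 by 4.26 (SE 0.29, limma adjusted p = 7.26e-09). Zfp352 was higher by 1.41 (SE 0.49), described with no test because the fall that chose it used the morula arrays too. This difference depended on single arrays: without the first pronuclear array it was 0.47.

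The 6 genes can be placed among the 190 genes whose signal was more than 5 units higher in 2-cell than in pronuclear embryos, which hold all 6. These 190 were picked on the same 2-cell arrays that the fall is measured from, so their counts and ranks are a description. Of them, 138 (72.6%) fell to the morula, 23 (12.1%) rose and 29 did not pass, with a median change of -3.07 quartiles of -5.21 and -0.67 and a range of -10.0 to 5.42, against 20.0% downward and 20.0% upward over all genes. Counted from the highest change, Timd2 ranked 6, Tdpoz2 25, Guca1a 45, Ubtfl1 104, Tdpoz3 167 and Zfp352 182.

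**Figure D3:**
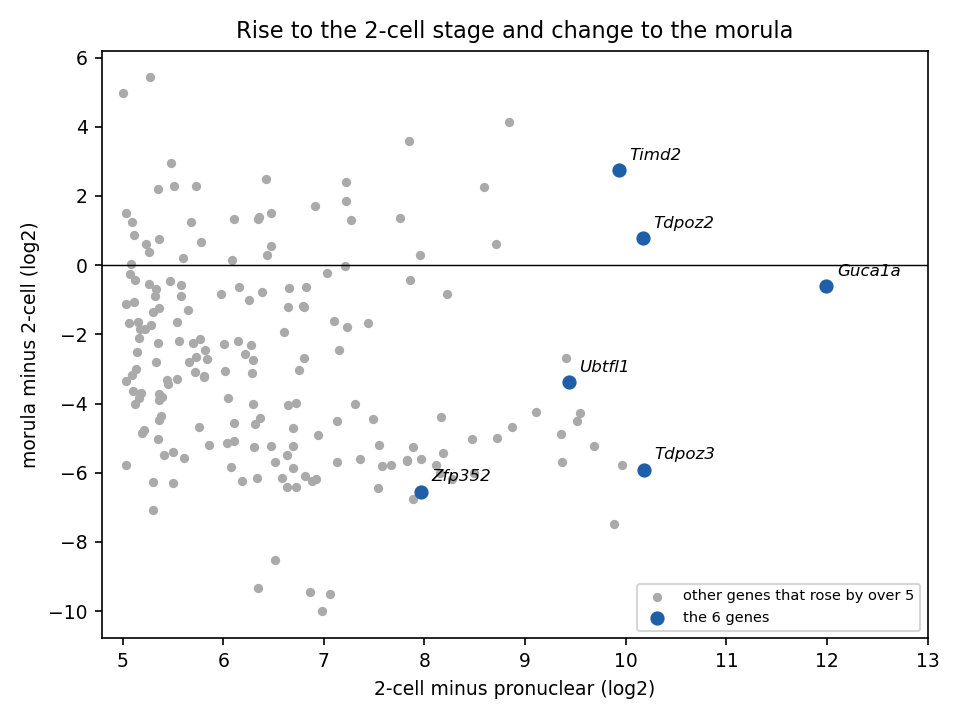
Change to the morula (log2, vertical axis) against the rise to the 2-cell stage (log2, horizontal axis) for the 190 genes with a rise of over 5; blue points are the 6 genes and grey points the others. Guca1a lies farthest right, Timd2 and Tdpoz2 lie above zero, and Zfp352 lies low among the falling majority.

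In E10.5 embryos against morulae all 6 genes fell, in a comparison where 51.9% of genes passed, 25.2% upward and 26.6% downward. Timd2 fell by 13.04 (SE 0.3, limma adjusted p = 1.15e-13), to 5.42 ± 0.23 at E10.5 (SD, n = 3), against 18.46 in morulae. Tdpoz2 fell by 11.31 and Guca1a by 11.07 (limma adjusted p = 5.72e-13 and 1.15e-13). The genes that had already come down fell less, Ubtfl1 by 6.05 and Tdpoz3 by 5.55 (limma adjusted p = 5.69e-10 and 1.46e-10). The fall of Zfp352, by 3.14, is a description, since the choice of this gene used the morula arrays. All but Timd2, which lay at 5.42 against a limit of 5.38, ended inside the receptor range. The early and late stages carry different dates in the files and differ in pooling, so stage, date and pooling cannot be told apart in this comparison.

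Between E16.5 and E10.5 embryos, both of 1 date, Timd2 was the only member past the threshold, while 37.8% of all genes passed, 17.5% upward and 20.3% downward. It averaged 9.57 ± 0.52 at E16.5 and 5.42 ± 0.23 at E10.5 (SD, n = 3 each), higher by 4.15 (SE 0.27, limma adjusted p = 9.36e-09, 95% interval 3.58 to 4.73), with all 3 E16.5 arrays above all E10.5 arrays. This rise ranked 418 of 21156 genes. The other genes differed by 0.27 (Guca1a), -0.26 (Zfp352), -0.3 (Ubtfl1), -0.43 (Tdpoz3) and -0.61 (Tdpoz2), with limma adjusted p from 0.0998 to 0.681, all inside the receptor range. For Tdpoz2 the arrays did not overlap, the 95% interval was -1.2 to -0.02, and it passed when either pronuclear array was left out (limma adjusted p = 0.0437). The tissue in which Timd2 was on cannot be read from a whole body.

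Other genes of each family or pathway were read from lists chosen with earlier results of these data known. Of 53 genes listed as activated at the 2-cell stage, 48 were measured, the 6 among them. At the morula 37 of these fell, 4 rose and 7 did not pass, against 20.0% of all genes each way. The median change was -4.36, against 0.11 over all genes. The largest falls outside the 6 genes were those of Obox5 and Obox3, oocyte homeobox genes, by 10.38 and 8.3 (limma adjusted p = 5.11e-12 and 9.36e-11), and of AA792892 by 6.76. These 3 were already bright before activation: Obox5 had 17.77 in 2-cell and 17.37 in pronuclear embryos (limma adjusted p = 0.368), Obox3 had 14.24 in 2-cell and 12.67 in pronuclear embryos, and AA792892 was lower in 2-cell embryos, 13.72 against 15.04 in pronuclear embryos. The largest rise was that of Pramel6, a gene of the PRAME family, by 3.79 (limma adjusted p = 8.01e-07). At E16.5 over E10.5, 3 of the 48 rose and 3 fell, against 17.5% and 20.3% of all genes. The 6 calls became 11 with array weights and 3 without the first E16.5 array.

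Most of the Tdpoz family fell at the morula, where Tdpoz2 did not pass the test. Of 13 Tdpoz and Spop genes listed, 9 were measured. All 9, among them the 2 members chosen for it, were higher in 2-cell than in pronuclear embryos, against 15.6% of all genes. At the morula 7 fell, against 20.0% of all genes, with a median of -3.73. The 2 that did not pass were Tdpoz2 and Spopl, a paralog of Spop (0.45, limma adjusted p = 0.256). Gm9125 fell by 5.27, Gm10696 by 4.99, Tdpoz1 by 3.99, Gm4858 by 3.73 and Tdpoz4 by 2.75, with limma adjusted p at or below 1.22e-05. RefSeq names Gm9125 Tdpoz9, Gm4858 Tdpoz8 and Gm10696 Spopfm2. Spop itself, the substrate adaptor of a cullin ubiquitin ligase, was higher in 2-cell embryos and fell by 1.13 at the morula (limma adjusted p = 0.0053, but 0.0638 without the first morula array).

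Gm10697 (RefSeq Tdpoz7), within 250 kb of Tdpoz3, was not in the list and fell by 4.5 at the morula. A probe set named for both Gm10697 and Tdpoz5 carried its values unchanged on every array, so Tdpoz5 has no measure of its own here. No such sharing touched the 6 genes. Whether the probes of Tdpoz2 and Tdpoz3 also catch RNA of their close relatives was not tested, and levels in this family are uncertain to that degree.

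**Figure D4:**
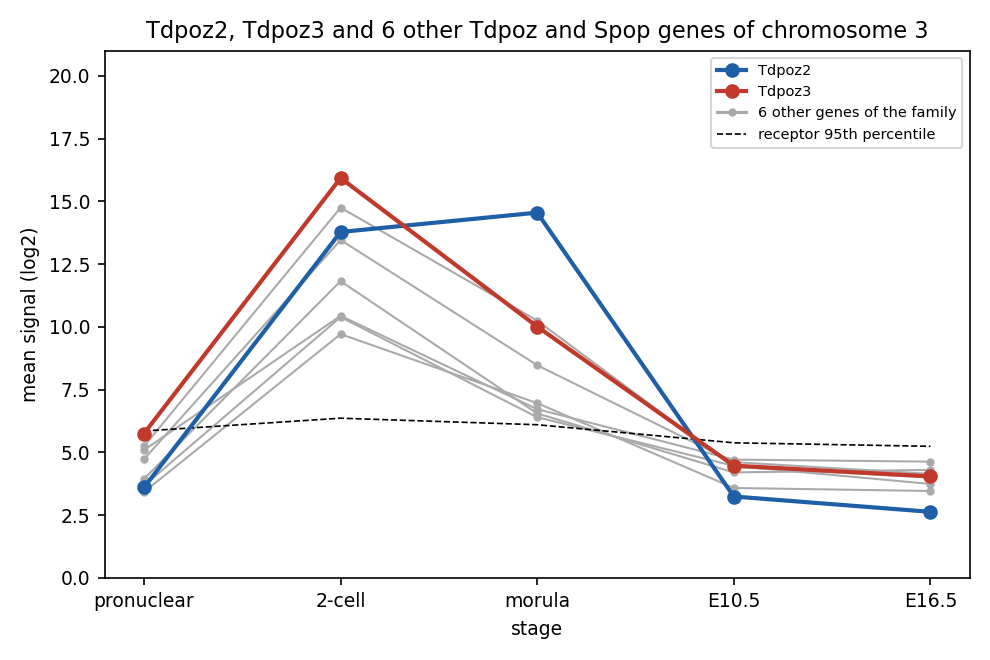
Mean signal (log2, vertical axis) at the 5 stages for Tdpoz2 (blue), Tdpoz3 (red) and 6 other Tdpoz and Spop genes of chromosome 3 (grey); the dashed line is the 95th percentile of the receptor genes. Every line but that of Tdpoz2 drops at the morula, where Tdpoz2 has 14.55 and Tdpoz3 10.01.

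The retinal pathway that GUCA1A serves did not rise as a set at the 2-cell stage. Of 22 genes of guanylate cyclase signalling and phototransduction, 2 were higher and 4 lower in 2-cell than in pronuclear embryos. Over all genes the shares were 15.6% and 20.0%, and the median change of the 22 was -0.02. Guca1a itself, chosen for its rise, was 1 of the 2 that were higher. Pde6a, a rod phosphodiesterase subunit and 1 of the 2, was higher by 1.11 (limma adjusted p = 0.0166, but 0.108 without the first pronuclear array). At the morula none of the 22 passed upward and 4 downward (20.0% each way over all genes), among them Cnga1, a channel subunit, by 2.44, Gnat2, the cone transducin, by 1.8 and Pde6a by 1.57. The neighbouring gene Guca1b, whose start is 15.2 kb from the start of Guca1a, encodes a like sensor. It had 5.89 in 2-cell and 5.15 in pronuclear embryos (limma adjusted p = 0.0717). Markers of photoreceptors were near background: the mean over 12 of them was 4.92 to 5.25 on the 2-cell arrays and 5.3 to 5.43 on the pronuclear arrays, and 2 of 12 were above the receptor range at the 2-cell stage.

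The genes around TIMD2's function moved in part. Of 6 measured genes for Tim receptors and their ligands, 3 rose at the morula, none fell and 3 did not pass. The median was 1.49, and 20.0% of all genes passed each way. Beside Timd2, Havcr1, the gene of the related receptor TIM-1, rose by 2.18 (limma adjusted p = 1.27e-05), and Lgals9, the galectin that binds TIM-3, by 2.14 (limma adjusted p = 1.04e-04). Fth1, the H-ferritin chain that TIMD2 binds, had 15.87 in morulae and 16.3 in 2-cell embryos, and Havcr2 and Timd4 did not pass either. At E16.5 over E10.5, Lgals9 rose by 5.51 (limma adjusted p = 4.75e-10), Havcr1 rose by 1.23 while staying inside the receptor range, and Fth1 rose by 0.72 (limma adjusted p = 0.0189), a call lost when any of 4 arrays was left out (0.0504 to 0.0607).

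Timd2 also lay among genes that rose at the morula. Of the 6 genes that begin within 250 kb of it, 1 rose at the 2-cell stage and 5 at the morula, against 15.6% and 20.0% of all genes. The 5 were Gm12169 by 4.49, Dppa1 by 3.87, BC053393 by 2.55, Gm12171 by 2.37 and Havcr1 by 2.18, while Timd4 did not pass. At E10.5 all 6 were inside the receptor range. Tdpoz3 was the only member most of whose neighbours rose with it at the 2-cell stage. Its 6 neighbours in the Tdpoz cluster, Tdpoz2 among them, rose by 6.0 to 10.17. Near Tdpoz2, 4 of 8 neighbours rose, Tdpoz3 among them, and 1 fell. That 1 was S100a11, by 0.86 (limma adjusted p = 0.0394), a call lost in 12 of 22 alternative fits. Of the genes near Guca1a, 2 of 7 rose, against 15.6% of all genes: AI661453 by 2.98 and Mrps10 by 1.2 (limma adjusted p = 0.0155, but 0.157 without the first pronuclear array). At the morula Mrps10, Ccnd3 and Bysl near Guca1a rose by 2.67, 2.42 and 2.07, Taf8 fell by 0.94 and the others did not pass. The call of Taf8 was lost with only these stages fitted (limma adjusted p = 0.0604). Naalad2, 1.42 kb from Ubtfl1, was the 1 of its 6 neighbours that rose at the 2-cell stage, by 1.47 (limma adjusted p = 0.00821). This call was lost without the second pronuclear array, where Naalad2 rose by 1.36. At the morula Naalad2 rose by 2.05 and Chordc1 by 1.11. Mbd3l2 fell by 5.21, Zfp558 by 2.04 and Muc16 by 1.36, and Mbd3l1 did not pass. The calls of Chordc1 and Muc16 were each lost in 1 alternative fit. The single neighbour of Zfp352, Gm12633, fell by 2.45 and then by 5.51.

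**Figure D5:**
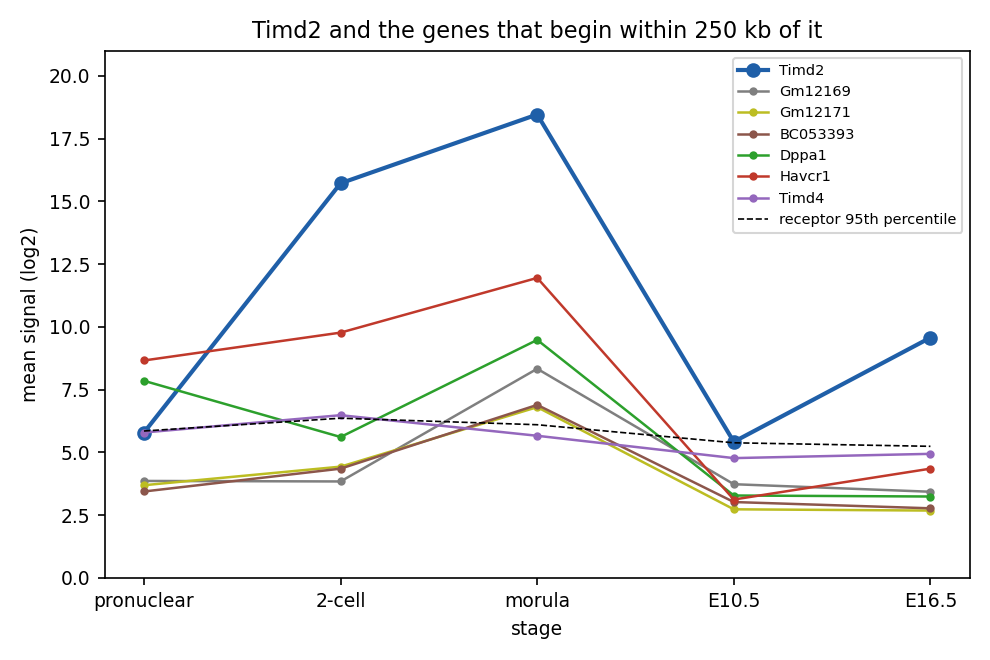
Mean signal (log2, vertical axis) at the 5 stages for Timd2 (thick blue line) and the 6 genes that begin within 250 kb of it; the dashed line is the 95th percentile of the receptor genes. Havcr1, Dppa1, Gm12169, BC053393 and Gm12171 peak at the morula as Timd2 does, and at E16.5 only Timd2 is above the dashed line.

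Of RNA polymerase I genes, the setting of UBTF, 15 were measured, counting Ubtfl1 itself. At the 2-cell stage 10 rose and 1 fell (median 1.32), against 15.6% and 20.0% of all genes. Ubtfl1, chosen for this rise, was 1 of the 10. At the morula 2 rose, 4 fell, Ubtfl1 among them, and 9 did not pass (median -0.13), near the 20.0% of all genes each way. Taf1a fell by 1.55, Polr1e by 1.47 and Rrn3 by 0.82 at the morula, the last with a limma adjusted p of 0.0244 (0.101 with only these stages fitted), while Polr1b rose by 1.47. Of 23 genes of chromatin and 2-cell gene control, 5 rose and 9 fell at the morula, against 20.0% of all genes each way. Obox2 and Obox1 each fell by 8.81, but both were already bright in pronuclear embryos (15.81 and 16.15) and lower in 2-cell embryos (14.48 and 15.07). Ehmt2, a histone methyltransferase, rose by 3.02.

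Cells carried along with the embryos were checked by their markers. The mean over 16 markers of cumulus and granulosa cells was 7.64 to 7.66 on the pronuclear arrays, 6.99 to 7.01 on the 2-cell arrays and 5.51 to 5.61 on the morula arrays. This mean went down at the step where the 6 genes went up, and went down again at the step where Tdpoz3, Ubtfl1 and Zfp352 came down. Of these markers 9, 7 and 5 were above the receptor range at the pronuclear, 2-cell and morula stages. The mean over 12 sperm markers was 5.31 to 5.35 on the 2-cell arrays and 5.56 to 5.71 on the pronuclear arrays. The part of either in the changes was not tested.

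The genes whose 5 stage means, each centred on its own mean, lay nearest to each member were named by the root mean square difference in log2 units over the 5 stages. Genes with provisional names, such as Gm and a number, and chemosensory receptor genes were not ranked. An unranked gene, such as Gm10697 of the Tdpoz cluster, can therefore lie nearer to Tdpoz3 or Ubtfl1 than the genes named. Guca1a and Tdpoz2 were near each other (0.69), and both were near Alppl2, an alkaline phosphatase of the early embryo (1.21 and 0.6), and Calcoco2 (1.55 and 1.14). Tdpoz3 was nearest to Slc19a3 (0.68), Spz1 (0.72) and Ubtfl1 (0.96). Ubtfl1 was nearest to Bex6 (0.76), Spz1 (0.84) and the homeobox gene Obox6 (0.88). Zfp352 was nearest to Tmem92 (0.47) and to the telomere-linked 2-cell genes Zscan4f and Zscan4c (0.49 each). The nearest to Timd2 were farther away: Spic, an ETS factor (1.53), Calcoco2 (1.58) and Folr1, a folate receptor (1.65), of which Folr1 had a signal of 8.8 at E16.5.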

How the data were processed

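The authors deposited gene-level log2 signals of Clariom S Mouse arrays, which the file headers label SST-RMA (robust multi-array averaging after a signal space transformation). The tool named in the submitters' processing notes is the Transcriptome Analysis Console. Biotinylated targets came from total RNA extracted with QIAzol, per the labels' protocols. For arrays no counting depth applies. Positions are those of the deposited annotation (mm10). Probe sets with 1 gene symbol were used (21367 of 22206), with the brightest kept where a gene had more than 1 (211 left out). Changes were fitted with limma 3.58.1 in R 4.3.3 (lmFit, eBayes), 1 model holding the 5 stages and all 12 arrays, two-sided, with Benjamini-Hochberg adjustment over 21156 genes and a threshold of 0.05, and the fit was tested on simulated data. Errors of means are standard deviations. Pairs of members were compared with an exact permutation test (scipy 1.17.1). Figures were drawn with matplotlib 3.10.9 in Python 3.11.15. Promoters were matched by symbol in a RefSeq table of 32851 windows: 4 of the 6 genes have one.

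The members and lists were chosen with earlier results of these data known. Named beside the members were, per list, the 3 largest falls and the largest rise at the morula, and all of the Tdpoz and Tim families. Also named were the 3 nearest genes per member, genes beginning within 250 kb and the genes next in the rise. Provisional names and chemosensory receptors were left out of the nearest genes and of those next in the rise. Alternatives were another prior, array weights, a replicate block, 3 other scalings, a filter on dim genes, the mean of probe sets, the stages compared only, a threshold of 0.01 and leaving out each array. A fit of arrays of 1 date was added after seeing the data. The replicate numbers do not pair the arrays.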

Additional observations from a re-analysis of the deposited data

How the results depend on the processing

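Every call of Timd2, Tdpoz3, Ubtfl1 and Guca1a in the 4 tested comparisons kept its direction and its side of the threshold under all alternatives run. The Tdpoz2 difference of morulae from 2-cell embryos became a call with arrays centred on their upper quartile (0.99, limma adjusted p = 0.039) and without either pronuclear array (0.78, limma adjusted p = 0.0354), and over the fits without 1 array it ranged from 0.71 to 0.84. Its difference of E16.5 from E10.5 became a call with only those stages, or only arrays of 1 date, fitted (-0.61 in both, limma adjusted p = 0.0431), or without either pronuclear array (-0.61, limma adjusted p = 0.0437), and without 1 array it ranged from -0.68 to -0.5. The Zfp352 difference of morulae from pronuclear embryos, only described, was 1.15 with arrays centred on the receptor median. It was 1.41 with only those stages or arrays of 1 date fitted, and without 1 array it ranged from 0.47 to 2.35. Its uncalled difference of E16.5 from E10.5 turned to 0.01 without the first E16.5 array (limma adjusted p = 0.992), with a range of -0.53 to 0.01 over the fits without 1 array. For these the cause was not tested.

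Scaling moved the balance of calls over all genes. Of the genes called, the share higher was 43.9% in 2-cell over pronuclear embryos, 50% in morulae over 2-cell embryos, 49.8% in morulae over pronuclear embryos, 48.6% in E10.5 embryos over morulae and 46.3% in E16.5 over E10.5 embryos. With the receptor median at a common level the third was 39.3% and the fourth 67.5%, and with the upper quartile they were 64.7% and 38.7%. The largest shift of the median over all genes was 0.48 (E10.5 minus morula, receptor median), below the size of each called change of a member. A shift of -0.26 left the described Zfp352 difference of morulae from pronuclear embryos at 1.15. The number of genes called stayed within 1.5 times that reported. With the replicate number as a block, 8150 genes were called in morulae against 2-cell embryos, against 8466 without it, and no call of a member changed. Deviations of same-numbered arrays correlated at 0.01 to 0.05, so the numbers were not taken as pairs.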
